A study of Bos taurus with 48 samples.

Results

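The liver assembles very low density lipoprotein (VLDL) around apolipoprotein B, and microsomal triglyceride transfer protein loads the particle with triglyceride before export. Other apolipoproteins made in the liver join VLDL or high density lipoprotein and steer what lipases and receptors do with them. Around calving, dairy cows release fatty acids from adipose tissue, and ruminant liver is known for a low capacity to return them to blood as VLDL. The genes *APOB*, *MTTP*, *APOA1*, *APOA2*, *APOA4*, *APOA5*, *APOC3*, *APOE*, *APOM* and *APOH* are described here. Every spot whose annotated gene name equalled 1 of these 10 symbols was taken, which gave 24 of 43803 spots and 10 of 16335 gene names.

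Liver was biopsied from 32 grazing dairy cows and compared on 48 bovine oligonucleotide arrays, each holding 2 cows, 1 labelled with Cy5 and 1 with Cy3. Cows had a body condition score (BCS) of 5 or 4 before calving and were offered 125% or 75% of their estimated energy requirement in the last weeks before calving, which gave the treatments B5F125, B5F75, B4F125 and B4F75. Biopsies came from 7 d before (d-7), 7 d after (d7) and 28 d after calving (d28), with 8 cows in each of the 12 groups of treatment and day. The labels call the cows American Holstein, and the methods call them mixed in breed and age. Per the methods, within each BCS the F125 cows were younger on average and fewer of them were pure New Zealand Holsteins. Differences by feeding are thus also differences of age and breed, whose part was not tested. Of the 36 arrays within a day, 2 arrays for each BCS and day set F125 against F75, and 8 arrays for each day set BCS5 against BCS4, some of them with a difference in feeding as well. The other 12 arrays set days against each other within a treatment, in 4 cow pairs of 3 arrays each, 1 pair for each treatment. Each of these arrays held 2 different cows, and in each pair the same cow carried Cy5 on all 3 arrays. Only these 4 cow pairs link the days. All 10 genes had a value on all 48 arrays.

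The values are log2 ratios of the 2 dyes, centred here on the median of each array and averaged over the probes of a gene. A ratio holds no absolute level, so the level of liver markers could not be checked and genes cannot be ranked by level. In whole tissue, fewer cells of a type and less RNA per cell cannot be told apart. All genes were fitted in 1 limma model of the 12 groups with a dye term and the cow pair as a random block. "Called" means a limma p no higher than 0.01 before adjustment together with a change of 1.5-fold or more, the limits used in the study. Benjamini-Hochberg adjusted p-values over the 15033 genes tested are given beside. No member had an adjusted p under 0.05 in any comparison, and the smallest was 0.0716.

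The ratio was read as Cy5 over Cy3, which is likely rather than stated. For the 12 arrays between days the sign was not settled, because with the dyes as labelled only 3 of 12 genes with a well known change around calving moved in the known direction. Comparisons of days are therefore given as sizes. Comparisons of treatments on a single day borrow information from these 12 arrays, so the value from the 36 arrays within days is given beside each one that matters.

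The array ratios of *APOA4* and *APOA1* varied far more than those of the assembly genes did. *APOA4* was read by 1 probe, and *APOA1*, *APOB* and *MTTP* as averages of 3 probes each. The part of probe averaging in the spread was not tested. *APOA4*, an apolipoprotein of triglyceride-rich and high density lipoproteins, had ratios between -3.67 and 2.66, with an SD of 1.69 over the 48 arrays. *APOA1*, which forms high density lipoprotein and activates cholesterol esterification on it, lay between -2.35 and 2.28 (SD 1.07). *APOA5*, which promotes clearance of plasma triglyceride, had an SD of 0.75, and *APOC3*, an inhibitor of that clearance, one of 0.681.

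At the other end, *APOA2*, a further protein of high density lipoprotein, had an SD of 0.288, *APOB* one of 0.37 and *MTTP* one of 0.373. *APOH*, a phospholipid-binding plasma protein, had an SD of 0.535, *APOM*, a carrier of sphingosine 1-phosphate, one of 0.471, and *APOE*, a ligand of lipoprotein receptors, one of 0.409. With treatment, day and dye fitted, *APOA4* kept a residual SD of 1.28, higher than that of 99.3% of the genes on all arrays, and *APOA1* one of 0.869, higher than that of 94.3%. The residual SD of *APOB* was 0.381 (higher than 23% of genes), that of *MTTP* 0.326 (10.9%) and that of *APOA2* 0.314 (8.87%). The dye effect, which shifts all ratios of a gene, was -0.61 ± 0.10 for *APOC3*, -0.56 ± 0.07 for *APOH* and 0.01 ± 0.05 for *MTTP* (log2, SE).

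**Figure D1:**
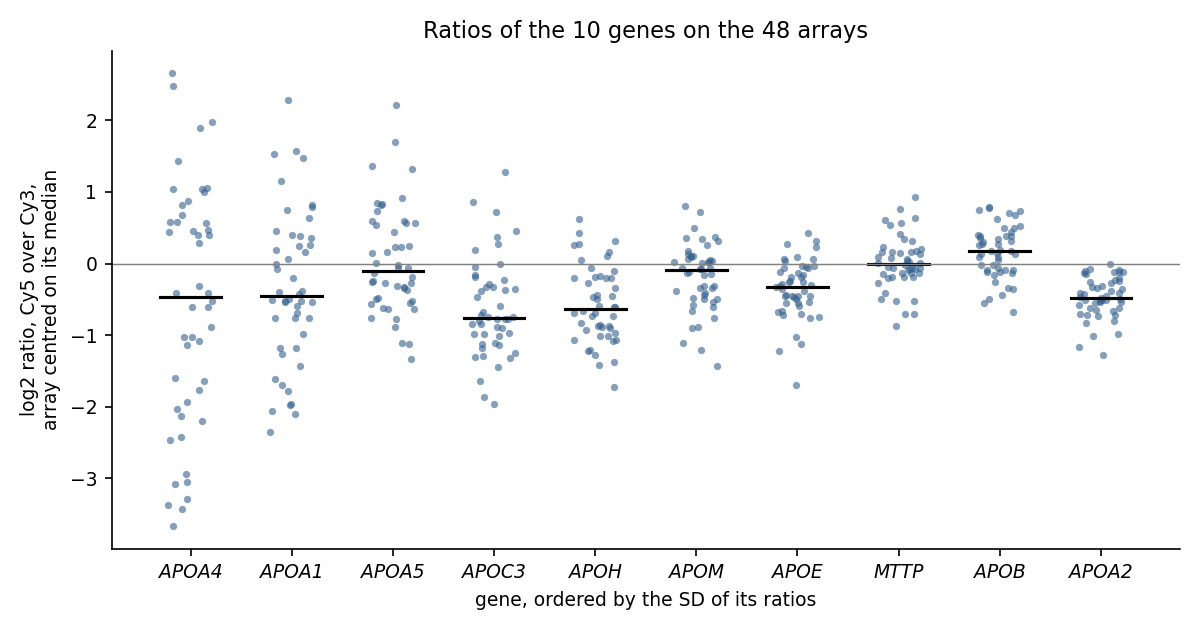
Log2 ratio of Cy5 over Cy3 for the 10 genes (x axis, ordered by SD) on the 48 arrays, each array centred on its median. Each point is 1 array and each bar the median, with *APOA4* between -3.67 and 2.66 and *APOA2* between -1.28 and 0.

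The ratios of *APOA4* went with those of *APOA5* (r = 0.77 over the 48 arrays, dye mean removed) and of *APOA1* (r = 0.75), and *APOA1* with *APOA5* (r = 0.57). These genes and *APOC3* lie next to each other on chromosome 15 in the ARS-UCD2.0 annotation, in the order *APOA5*, *APOA4*, *APOC3*, *APOA1*. *APOC3*, inside the cluster, correlated with *APOA5* at 0.46, with *APOA4* at 0.27 and with *APOA1* at 0.06. Its value was an average of 2 probes on 19 arrays (r = 0.175 between them) and 1 probe on the others. The part of this in its correlations was not tested. *APOB* and *MTTP*, whose products act in the same step, had a correlation of 0.003. *APOA2* went with *APOH* (0.67) and *APOE* (0.57). The arrays share cows, and these correlations are descriptions without a test.

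Among all genes on the 48 arrays, the nearest to *APOA1* was *APOA4*. The nearest to *APOA4* was *P2RX4*, an ATP-gated channel (r = 0.78), and the nearest to *APOA5* was *ASGR2*, a subunit of the hepatocyte asialoglycoprotein receptor (0.81). *APOE* was nearest to *VTN*, the plasma protein vitronectin (0.82), and *APOH* to *TTR*, the plasma carrier transthyretin (0.77). *APOB* was nearest to *VDAC1*, a channel of the outer mitochondrial membrane (0.74), and *MTTP* to *KCTD7* (0.67). *APOM* was nearest to *ITIH3*, an inter-alpha-trypsin inhibitor chain (0.59), *APOC3* to *SURF1*, an assembly factor of cytochrome oxidase (0.55), and *APOA2* to a gene model without a symbol (0.75).

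Probes of 1 gene did not always move together. The 3 *APOA1* probes correlated with the mean of the others at 0.875 to 0.966 and the 3 *APOH* probes at 0.851 to 0.943. One of the 3 *APOB* probes correlated with the others at 0.11, 1 of the 3 *MTTP* probes at 0.34 and 1 of the 4 *APOE* probes at 0.44. The second *APOC3* probe had values on 19 arrays only (r = 0.175). *APOA4* and *APOM* had 1 probe each, so their values could not be compared between probes.

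Feeding before calving was the study's main comparison, and the assembly genes showed no called response to it. *APOB* differed between B5F125 and B5F75 by 0.26 at d-7 (log2, 95% interval -0.11 to 0.62), by -0.22 at d7 and by -0.08 at d28. In B4 its differences lay between -0.04 and 0.15 on the 3 days. The arrays of B5F125 over B5F75 at d-7 read -0.12 and 0.44 for *APOB*, on both sides of 0.

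*MTTP* came nearest to a call in B4 at d28. The 2 arrays that held B4F125 and B4F75 read 0.93 and -0.07, on both sides of 0. The model put B4F125 above B4F75 by 0.50 ± 0.16 (log2, SE, adjusted p = 0.918), which passed the limit on p but, at 1.42-fold, not that on size. The 3 probes gave 0.67, 0.42 and 0.42, and the 36 arrays within days gave 0.39 ± 0.18, past neither limit. In B5 at d28 the difference of *MTTP* was 0.11 ± 0.16, and in B4 at d7 it was 0.15 ± 0.16. For overfed BCS4 cows the study, with its own model, reported *MTTP* as significantly higher, by less than 1.5-fold. It reported *APOB* as higher without significance.

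In B4 at d28, 8 of the 10 genes had a value above 0, with a median of 0.18 over the members and -0.01 over all genes. From the 36 arrays within days, *APOB*, *APOA2*, *APOE* and *APOM* lay below 0 and the other members above it. With the dyes of the day arrays exchanged, *APOH* lay below 0 as well. None was called, 3 had an unadjusted p under 0.05, and 0.845% of all genes were called. *APOA4* stood at 1.32 ± 0.57 with arrays at -0.52 and 2.20, and *APOA5* at 0.66 ± 0.31 with arrays at -0.38 and 0.63. The 36 arrays gave 1.05 ± 0.59 for *APOA4* and 0.40 ± 0.31 for *APOA5*, neither of them a call. With exchanged dyes the values were 0.39 and 0.04. In this comparison 12 of 14 measured hepatocyte markers lay above 0 (median 0.21). Below 0 lay 6 of 8 cholangiocyte markers (median -0.25), 7 of 9 macrophage markers (median -0.08) and 5 of 6 stellate and fibroblast markers (median -0.20). Their part in the members' values was not tested.

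Before calving, *APOA1* was called lower in BCS5 cows fed 125%, without an adjusted p under 0.05. The 2 arrays that held B5F125 and B5F75 at d-7 read -1.43 and -2.28, both below 0. *APOA1* fell in B5F125 against B5F75 by 1.43 ± 0.39 (log2, SE, 2.69-fold lower, adjusted p = 0.843). It was the 1 member called, beside 0.639% of all genes. An unadjusted p under 0.05 was found for 2 members and for 614 of the 15028 genes tested. The call was kept by the 36 arrays within days (-1.57 ± 0.40) and with the dyes of the day arrays exchanged (-1.12). The 3 probes gave -1.67, -1.59 and -1.02. Without cow pair 14 the value was -1.15 and no longer a call, and read by channel order in place of dye it was -0.25 and no call.

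Markers of other cells moved in the same comparison. All 14 measured hepatocyte markers lay above 0 (median 0.23, from 0.08 to 0.35), while 0 of 8 cholangiocyte markers did (median -0.48). Of the macrophage markers 8 of 9 lay above 0 (median 0.20, up to 0.70). The 5 erythroid markers were split, with 3 above 0, a median of 0.05 and a range from -0.16 to 1.95. The highest of them, *HBB*, the beta chain of haemoglobin, rose by 1.95 ± 0.58 (adjusted p = 0.859). Of 5 markers of gut and pancreas, examined because the intestine also makes *APOA1* and *APOA4*, 1 lay above 0 (median -0.12). The part of these markers in the *APOA1* value was not tested.

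In B4 at d-7 no member was called, beside 0.472% of all genes. An unadjusted p under 0.05 was found for 1 member and for 506 of the 15029 genes tested. That member was *APOA1*, at -0.85 ± 0.39 (adjusted p = 0.999), with arrays at -1.96 and 0.51 on both sides of 0. From the 36 arrays within days alone its value was -1.23 ± 0.40, a call. *APOA4* stood at -1.09 ± 0.57 in B5, with arrays at -2.47 and -0.41, and at -0.98 ± 0.57 in B4, with arrays at -2.03 and 1.02. Neither was called. The 2 B5 arrays of *APOA5* read -0.47 and -0.73, and the model gave -0.21 ± 0.31.

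Against the mean of the 4 treatments at d-7, *APOA1* stood at -0.89 in B5F125, 0.68 in B5F75, -0.51 in B4F125 and 0.72 in B4F75 (log2, SE 0.245 each, 36 arrays). For *APOA4* these levels were -1.14 in B5F125, 0.29 in B5F75, -0.10 in B4F125 and 0.96 in B4F75 (SE 0.364 each). Both genes were thus lowest in B5F125 and highest in B4F75, and for *APOA1* the 2 groups fed 75% were within 1 SE of each other.

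After calving this difference of *APOA1* was not detected. B5F125 differed from B5F75 by -0.10 ± 0.39 at d7 and 0.10 ± 0.39 at d28, and B4F125 from B4F75 by 0.04 ± 0.39 and -0.04 ± 0.39. At d7 no member was called in B5, where 1.05% of all genes were, nor in B4, where 1% were. In either, 0 members had an unadjusted p under 0.05, beside 734 of 15022 genes in B5 and 784 of 15027 in B4.

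The change of the feeding response between days was itself tested. In B5 the *APOA1* response at d7 was above that at d-7 by 1.33 ± 0.47 (adjusted p = 0.699), and *APOA1* was the 1 member called, beside 1.36% of all genes. At d28 it was above that at d-7 by 1.53 ± 0.47 (adjusted p = 1), again as the 1 member called, beside 0.546% of all genes. Both changes subtract the same d-7 response, so they are not separate results. The 36 arrays within days gave 1.63 and 1.65, both calls. With the dyes of the day arrays exchanged the values were 1.04 and 0.88, neither of them a call, and by channel order they were 0.25 and -0.20. The call between d-7 and d28 was lost without cow pair 14 (1.10) or 16 (1.46). That between d-7 and d7 was lost without any 1 of pairs 3, 4, 9, 11, 12, 13, 14 or 16, with values from 1.06 to 1.38. Hepatocyte markers moved with both contrasts, with 13 of 14 below 0 between d-7 and d7 (median -0.25) and 10 of 14 between d-7 and d28 (median -0.22). Of the cholangiocyte markers 4 of 8 lay above 0 in the first (median -0.06) and 7 of 8 in the second (median 0.44). Their part in the *APOA1* values was not tested. In B4 the change of *APOA1* between d-7 and d7 was 0.89 ± 0.47, or 1.496 from the 36 arrays, which alone was a call. No member was called there with 48 arrays, beside 0.939% of all genes. An unadjusted p under 0.05 was found for 2 members and for 890 of the 15023 genes tested.

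For *APOA4* and *APOA5* the change of the feeding response was called in B4 between d-7 and d28. It was 2.30 ± 0.69 for *APOA4* (adjusted p = 0.679) and 1.06 ± 0.38 for *APOA5* (adjusted p = 0.741), so 2 members were called, beside 1.15% of all genes. The 36 arrays within days gave 2.11 and 0.62, neither of them a call. With the dyes of the day arrays exchanged the values were 0.77 for *APOA4* and -0.16 for *APOA5*, and by channel order 0.47 and 0.38, none of them a call. *MTTP* passed the limit on p in this contrast at 0.56 ± 0.19 (adjusted p = 0.719), but was 1.47-fold. The *APOA5* call was also lost without any 1 of pairs 1, 4, 7, 8, 9, 10, 11, 12 or 13, with 0.52 without pair 1. The median of the 10 genes in this contrast was 0.47 with all arrays and the dyes as labelled, against 0.002 over all genes. From the 36 arrays within days, *APOB*, *APOA2*, *APOE* and *APOM* lay below 0 and the other members above it. With exchanged dyes *APOB*, *APOA2*, *APOA5*, *APOC3*, *APOE* and *APOH* lay below 0, so a shift of the members as a group was not kept. With all arrays and the dyes as labelled, all 14 hepatocyte markers lay above 0 in this contrast (median 0.16, up to 0.53). Below 0 lay 7 of 8 cholangiocyte markers (median -0.48), 5 of 6 stellate and fibroblast markers (median -0.35) and 4 of 5 erythroid markers (median -0.23), among them *HBM*, a haemoglobin chain, which was called at -1.28. Their part in the *APOA4* and *APOA5* values was not tested.

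At d28, *APOM* was called lower in BCS5 cows fed 125%, without an adjusted p under 0.05. The 2 arrays with B5F125 and B5F75 read -0.88 and -0.04, both below 0 but 1 of them close to it. *APOM* fell in B5F125 against B5F75 by 0.67 ± 0.17 (log2, SE, 1.59-fold lower, adjusted p = 1). It was the 1 member called, beside 0.392% of all genes, and the 1 with an unadjusted p under 0.05, beside 294 of 15032 genes. The 36 arrays within days gave -0.62 ± 0.17, a call, and exchanged dyes on the day arrays gave -0.49, no call. By channel order the value was -0.37, no call. Without cow pair 11 the value was -0.58, under the fold needed.

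The *APOM* difference in B5 had the same sign on the other days, with -0.39 ± 0.17 at d-7 and -0.30 ± 0.17 at d7, neither called. The 2 arrays with B5F125 and B5F75 read -1.21 and 0.14 at d-7, on both sides of 0, and 0 and -0.48 at d7. They held the same 2 cow pairs on each day, so the days are not separate replicates. Averaged over days the *APOM* difference in B5 was -0.45 ± 0.12 (adjusted p = 0.694), which passed the limit on p but was 1.37-fold. In B4 the average was -0.14 ± 0.12. No member was called over all days in B5, beside 0.44% of all genes, nor in B4, beside 0.433%. In B5, 1 member and 456 of 15016 genes had an unadjusted p under 0.05. In B4 these were 0 members and 531 of 15022 genes. In B5 at d28 the 9 measured macrophage markers all lay above 0 (median 0.14), and 8 of 14 hepatocyte markers did (median 0.03). Their part in the *APOM* value was not tested.

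**Figure D2:**
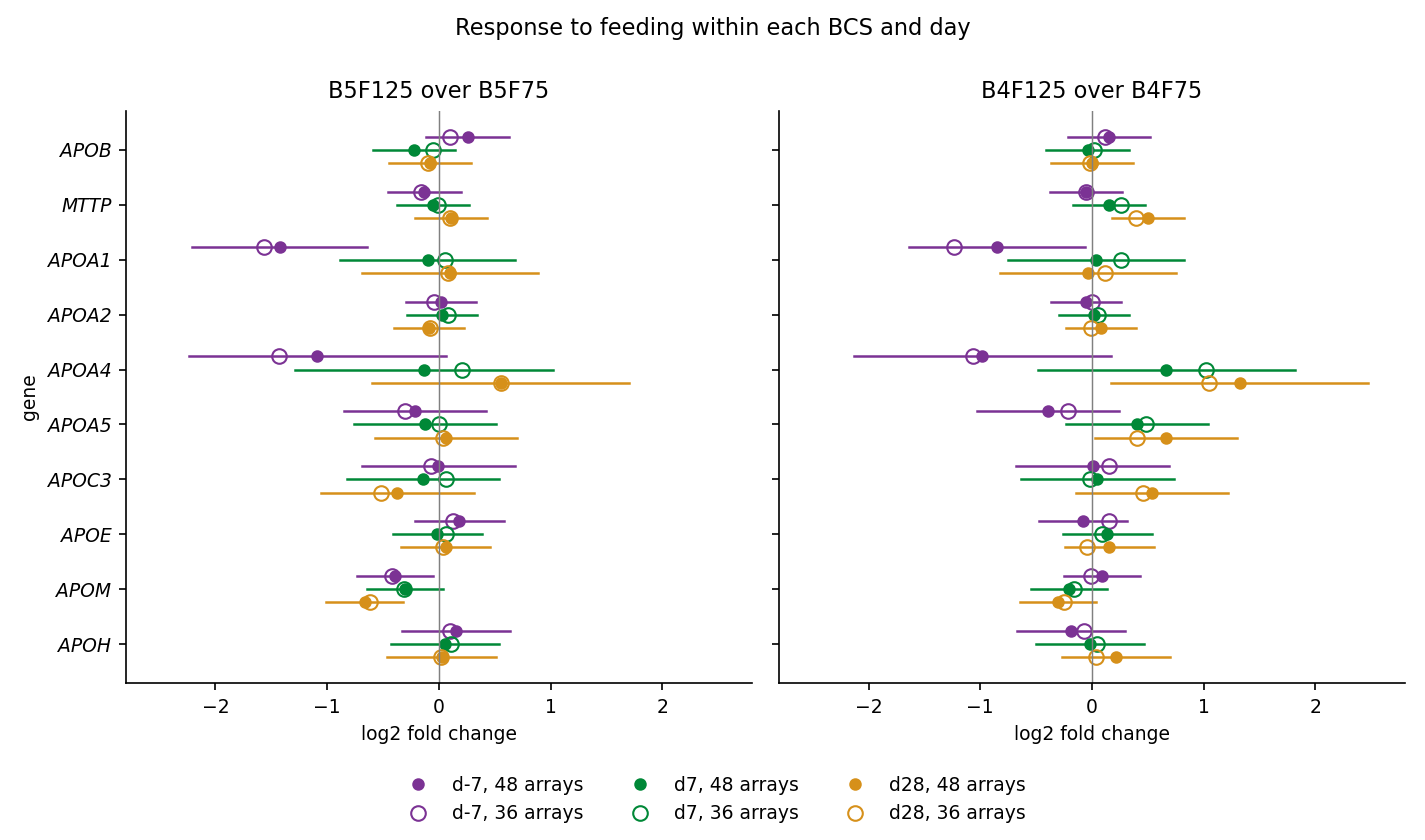
Log2 fold change of F125 over F75 within BCS5 (left) and BCS4 (right) for the 10 genes at d-7, d7 and d28. Filled points with lines are the estimate and 95% interval from 48 arrays and open points the estimate from the 36 arrays within days. *APOA1* at d-7 in B5 stands at -1.43 and *APOM* at d28 in B5 at -0.67, while *APOA2* lies between -0.09 and 0.08 throughout.

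The remaining members had no called response to feeding. The differences of *APOA2* within BCS and day lay between -0.09 and 0.08, with 95% intervals that reached from -0.40 to 0.39. Those of *APOE* lay between -0.08 and 0.18 and those of *APOH* between -0.19 and 0.22. *APOC3* was the least precise of these, with differences from -0.37 to 0.54 and an SE of 0.338 each. These intervals do not show that the groups were alike.

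Whether the response to feeding differed between the 2 BCS was tested as an interaction. No member was called at d-7, d7, d28 or over all days, beside 0.419%, 0.992%, 0.632% and 0.447% of all genes. At an unadjusted p under 0.05 the count was 0 too, beside 429, 791, 462 and 500 of all genes. The calls of a mixed model fitted gene by gene were also 0. The response of *APOM* in BCS5 minus that in BCS4 was -0.48 ± 0.24 at d-7. For *APOA1* at d-7 it was -0.58 ± 0.55, so a difference between the BCS in the fall of *APOA1* was not shown. At d28, 9 of the 10 genes had a value below 0, with a median of -0.28 against 0.02 over all genes.

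Between BCS5 and BCS4 cows, *APOA1* and *APOA4* were called at d28, neither with an adjusted p under 0.05. On the 8 arrays that held a BCS5 and a BCS4 cow at d28, *APOA1* read -1.97 at the lowest, -0.80 at the median and 0.76 at the highest, and 7 of 8 lay below 0. *APOA1* fell in BCS5 cows against BCS4 cows by 0.78 ± 0.28 (log2, SE, 1.72-fold lower, adjusted p = 0.999), averaged over feeding. On the same arrays *APOA4* read -3.67 at the lowest, -1.02 at the median and 0.44 at the highest, with 7 of 8 below 0. The ratios of the 2 genes went together over the 48 arrays (r = 0.75), so these are not separate observations. *APOA4* fell by 1.22 ± 0.40 (2.33-fold lower, adjusted p = 0.999). These were the 2 members called, beside 0.273% of all genes. An unadjusted p under 0.05 was found for 2 members and for 439 of the 15031 genes tested.

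The lowest array of both genes was that of cow pair 11, which compared B5F75 with B4F125. The 36 arrays within days gave -0.85 for *APOA1* and -1.36 for *APOA4*, both calls. The *APOA1* call was lost without any 1 of pairs 1, 2, 3, 5, 9, 10 or 11, with values between -0.79 and -0.67. The *APOA4* call was lost without any 1 of pairs 2, 3, 5 or 9, with values between -1.17 and -1.03. Read by channel order in place of dye, the values were 0.45 for *APOA1* and 0.43 for *APOA4*.

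At d28 all 10 endothelial markers lay below 0 in BCS5 against BCS4 cows (median -0.22), as did all 9 macrophage markers (median -0.13) and 5 of 6 stellate and fibroblast markers (median -0.32). All 5 erythroid markers (median 0.16) and all 7 neutrophil markers (median 0.08) lay above 0. Of the hepatocyte markers 10 of 14 lay above 0 (median 0.07). Of the gut and pancreas markers 1 of 5 lay above 0 (median -0.06). Their part in the *APOA1* and *APOA4* values was not tested.

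At d-7 and d7 no member was called between BCS5 and BCS4, beside 0.313% and 0.879% of all genes. At d-7, 2 members and 370 of 15024 genes had an unadjusted p under 0.05. At d7 these were 0 members and 798 of 15016 genes. *APOA4* was at -0.86 ± 0.40 at d-7 and -0.57 ± 0.40 at d7, and *APOA1* at -0.35 ± 0.28 and -0.49 ± 0.28. At d-7, 9 of the 10 members were below 0, with a median of -0.16 against -0.01 over all genes. *APOA5* was at -0.50 ± 0.22 there, or -0.27 from the 36 arrays. At d7 *APOE* was at 0.28 ± 0.14 and *MTTP* at 0.22 ± 0.11.

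Averaged over the 3 days, *APOA4* fell in BCS5 against BCS4 cows by 0.88 ± 0.29 (1.84-fold lower, adjusted p = 1), with 17 of 24 arrays below 0. It was the 1 member called, beside 0.173% of all genes, and the average includes d28, where it was called too. Without cow pair 2 its value was -0.65 and no call, and a mixed model fitted to the gene alone did not call it. *APOA1* was at -0.54 ± 0.20 with 19 of 24 arrays below 0, which passed the limit on p but was 1.45-fold. The 24 arrays hold the same cow pairs on each of the 3 days, so they are not separate replicates. *APOB* was at -0.05 ± 0.09 and *MTTP* at 0.01 ± 0.08.

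**Figure D3:**
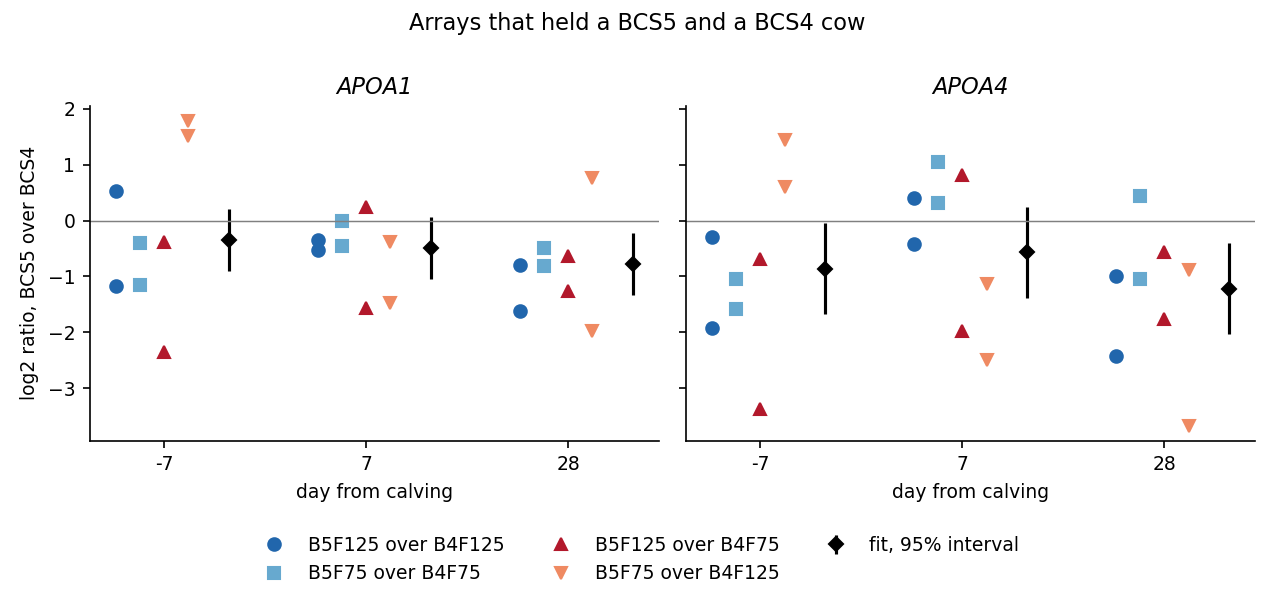
Log2 ratio of BCS5 over BCS4 for *APOA1* (left) and *APOA4* (right) by day from calving, 1 point per array, with symbols for the treatments compared. Diamonds with bars are the model estimate and its 95% interval. At d28, 7 of 8 arrays lie below 0 for both genes.

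**Figure D4:**
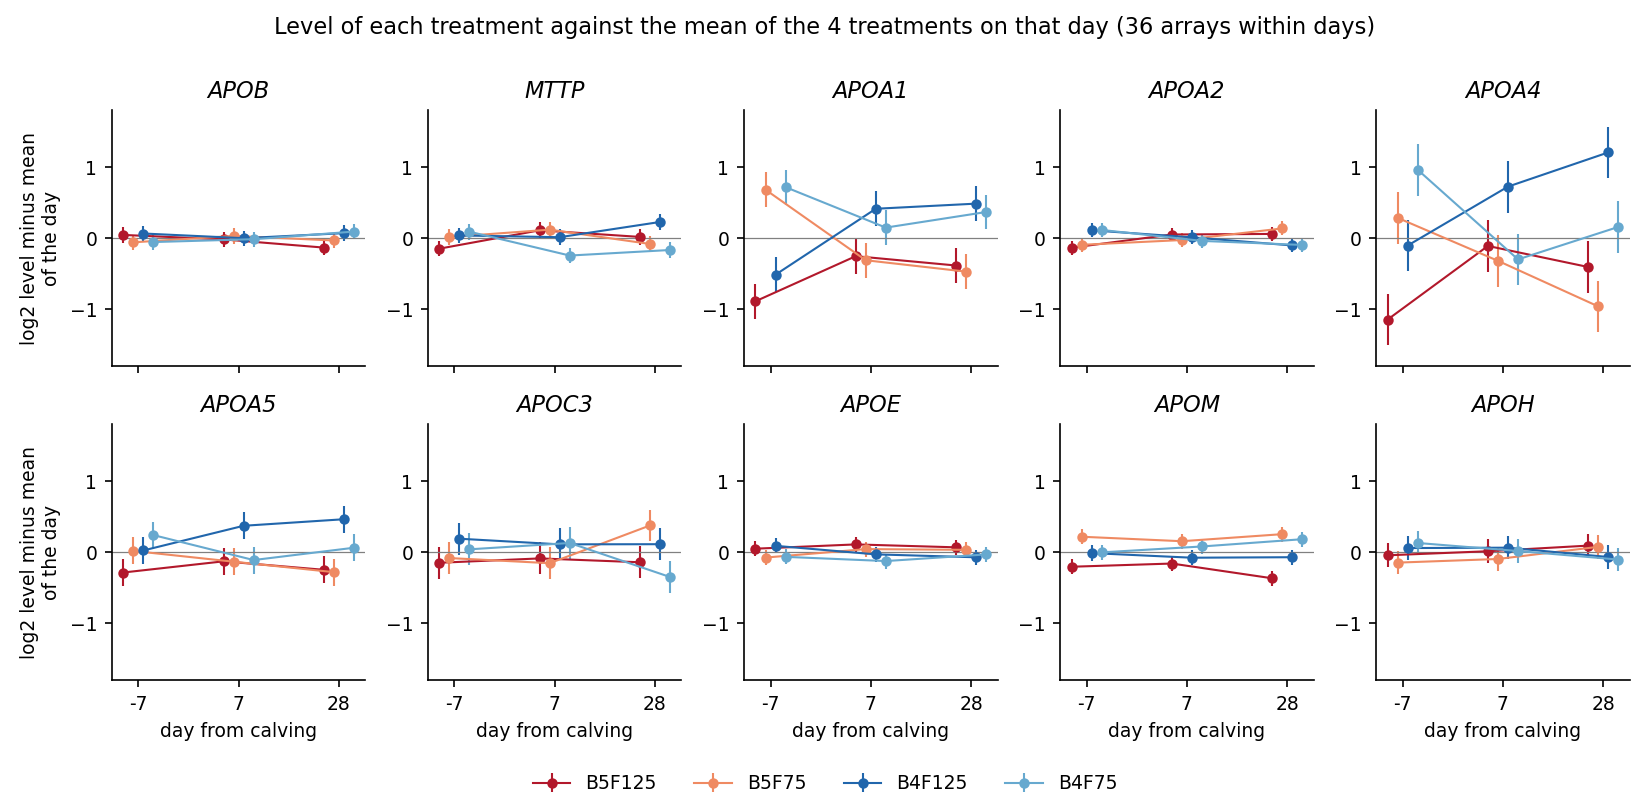
Level of each treatment for the 10 genes on a log2 scale, against the mean of the 4 treatments on the same day, from the 36 arrays within days (points, estimate; bars, SE). *APOA1* in B5F125 stands at -0.89 at d-7 and *APOA4* in B4F125 at 1.21 at d28.

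Between days, *APOA4* was the 1 member called. The 4 arrays of d7 over d-7 read -0.58 in B5F125, -0.46 in B5F75, -2.94 in B4F125 and -3.29 in B4F75 with the dyes as labelled, all on 1 side of 0. Each value sets 1 cow against another, so on a single array a difference of days is also one of cows. The size of the *APOA4* difference between these days was 2.08 ± 0.47 (log2, SE, 4.23-fold, adjusted p = 0.0716), beside 1.59% of all genes called. The arrays of d28 over d-7 read -3.08 in B5F125, -3.06 in B5F75, 1.03 in B4F125 and -1.89 in B4F75, so 1 treatment stood on the other side of 0. The size was 1.48 ± 0.47 (2.8-fold, adjusted p = 0.201), beside 2.15% of all genes called. This call was lost without cow pair 1 (-1.28), 8 (-1.51) or 16 (-1.37), with the dyes as labelled, and with arrays scaled to the same spread (-1.22). Both signs turn if the dyes of these arrays were exchanged.

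Between d28 and d7 no member was called, beside 1.93% of all genes. An unadjusted p under 0.05 was found for 2 members and for 1608 of the 15012 genes tested. The *APOM* arrays of d28 over d7 read 0.49 in B5F125, 1.43 in B5F75, 0.50 in B4F125 and 0.25 in B4F75 with the dyes as labelled, all on 1 side of 0. The size was 0.55 ± 0.14 (adjusted p = 0.109), which passed the limit on p but was 1.46-fold. *MTTP* had a size of 0.32 ± 0.13 in this comparison, with 4 of 4 arrays on 1 side of 0.

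Between d7 and d-7 *APOM* had a size of 0.38 ± 0.14 (adjusted p = 0.398), *APOA1* one of 0.85 ± 0.32 (adjusted p = 0.416) and *APOH* one of 0.49 ± 0.20 (adjusted p = 0.447), none of them a call. Markers of other cells differed between days too. With the dyes as labelled, 9 of 10 endothelial markers lay below 0, the side of *APOA4*, at d7 against d-7 (median -0.21) and at d28 against d-7 (median -0.27). On the other side lay 4 of 5 erythroid markers in both (medians 0.62 and 0.60), with *HBB* called in the first and *HBB*, *HBM* and *HBA* called in the second. Hepatocyte markers were split evenly, with 7 of 14 above 0 in both. The part of these markers in the day values was not tested. The sizes of *APOB* and *APOE* were at most 0.08 and 0.09 in the 3 comparisons of days. Per the labels d7 had the lowest mean RNA integrity of the 3 days, and its part in the day values was not tested.

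**Figure D5:**
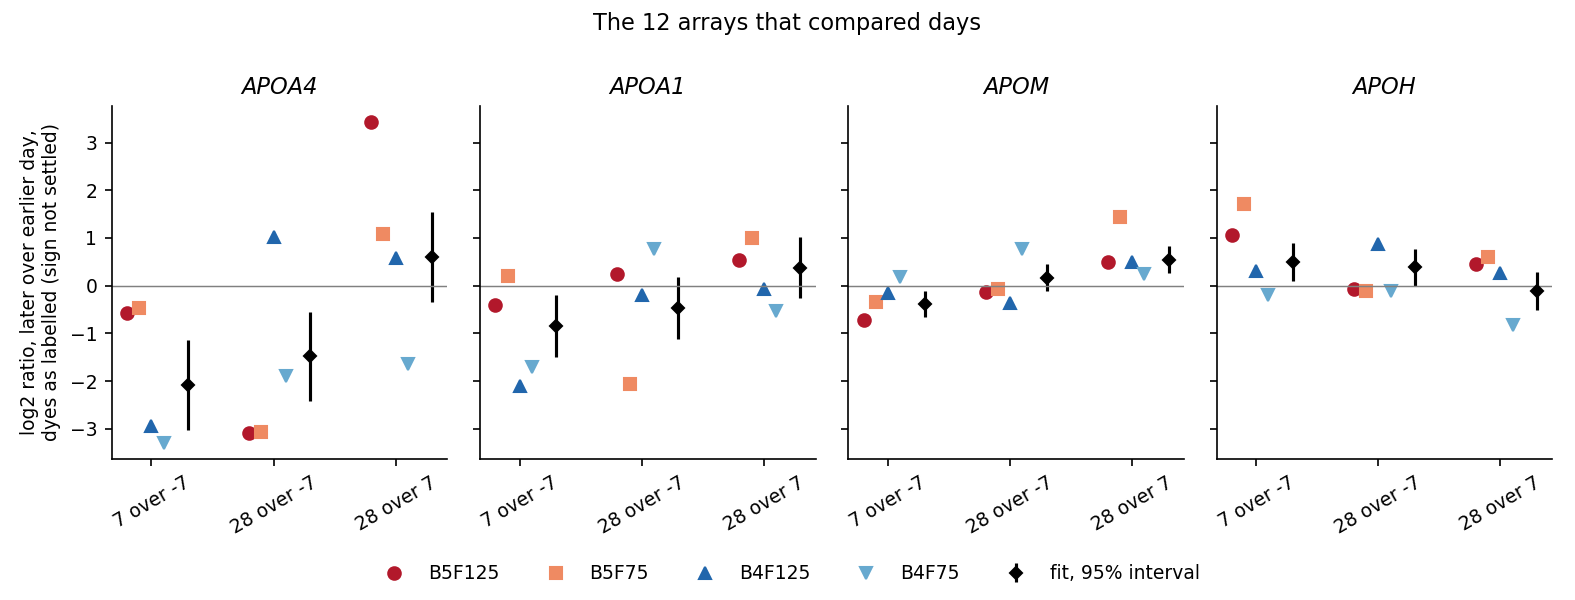
Log2 ratio of the later over the earlier day for *APOA4*, *APOA1*, *APOM* and *APOH*, 1 point per array and treatment, with the dyes as labelled, so that the sign of all values may be turned. Diamonds with bars are the model estimate and 95% interval. The 4 *APOA4* arrays of d7 over d-7 lie between -3.29 and -0.46.

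Genes around the members in lipoprotein metabolism were counted from 5 lists. Over all genes, 0.66% of values were called in the 8 comparisons of feeding, 0.409% in the 4 of BCS and 1.89% in the 3 of days. At an unadjusted p under 0.05 stood 294 to 784 genes in each comparison of feeding and 370 to 798 in each of BCS. Of 25 measured genes of VLDL lipidation and export, 1 was called in the 8 comparisons of feeding, 0.5% of 200 values and below the share over all genes. It was *SORT1*, a sorting receptor that binds apolipoprotein B, which rose in B4F125 against B4F75 at d28 by 0.77 ± 0.25 (adjusted p = 0.918). The 36 arrays within days gave 0.54 for it, no call. In the 4 comparisons of BCS 0 of these genes were called, with 2 values at an unadjusted p under 0.05. *P4HB*, the partner subunit of the *MTTP* protein, was called between d7 and d-7 with a size of 0.65 ± 0.19 and between d28 and d-7 with a size of 0.79 ± 0.19 (adjusted p = 0.0821).

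Of 11 other apolipoproteins measured, 2 were called for feeding (2.27% of 88 values), both lower in F125, and 0 for BCS, with 1 value at an unadjusted p under 0.05. *APOC2*, the activator of lipoprotein lipase, fell in B5F125 against B5F75 at d-7 by 0.80 ± 0.26 (adjusted p = 1, -0.83 from the 36 arrays, a call), the comparison in which *APOA1* was called. *SAA4*, an apolipoprotein of high density lipoprotein, fell in B4F125 against B4F75 at d7 by 1.204 ± 0.44 (adjusted p = 0.864, -1.31 from the 36 arrays, no call). Between d28 and d7 *APOC2* was called with a size of 0.75 ± 0.21.

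Of 15 measured receptors and transporters, 1 was called for feeding (0.833% of 120 values). It was *ABCG8*, a subunit of a sterol exporter, which fell in B4F125 against B4F75 at d28 by 1.35 ± 0.48 (adjusted p = 0.926, -1.43 from the 36 arrays, no call). *SCARB1*, the receptor for high density lipoprotein, was called between d7 and d-7 with a size of 0.80 ± 0.18 (adjusted p = 0.0716), and *STAB1*, a scavenger receptor that is also in the list of endothelial markers, between d28 and d-7 with a size of 0.65 ± 0.21.

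Of 25 measured regulators, 0 were called for BCS, with 2 values at an unadjusted p under 0.05. *FOXA3*, a hepatocyte transcription factor, was called between d28 and d-7 with a size of 1.27 ± 0.32 (adjusted p = 0.108). Of 12 plasma remodelling genes measured, 0 were called for feeding or BCS, with 0 and 1 values at an unadjusted p under 0.05. *LIPG*, endothelial lipase, was called between d7 and d-7 with a size of 1.06 ± 0.37 on 42 arrays.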

How the data were processed

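Per the methods, the authors scanned the arrays, left out substandard spots in GenePix Pro and adjusted for dye and array by lowess and centring. The deposited values are log2 ratios of this kind. Blanks made up 15.95% of values (1.42% to 21.49% per array) and array medians ran up to 0.521. Signal per spot was not used here, and the number of arrays limits the precision. Gene names came from the deposited annotation, joined by spot number. Its names lack the digit 0, so 361 were restored and 291 that fitted several genes were left out. Its 48 value columns were not used, since their names match no sample.

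Each array was centred on its median and probes of a gene were averaged. Genes on at least 24 arrays were fitted in limma 3.58.1 (R 4.3.3, statmod 1.5.0) on 12 group means and the dye, with ratios turned to the same cow and cow pair as the block (consensus correlation 0.151), because each cow met only 1 other cow. Replicates are separate cows, sampled on several days. The scripts were tested on simulated data.

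No source states the numerator. Mean ratios of the 29 arrays with channel 1 Cy3 and the 19 with channel 1 Cy5 correlated at 0.403, so ratios were read by dye, and 306 of 378 genes from the study's lists of feeding responses had the same sign with Cy5 over Cy3. Those lists were used for nothing else. The members and lists were chosen with earlier results of these data known. All 10 members were named, list genes when called (up to 4 per list, some not reported here), and 1 nearest gene per member. *HBB*, *HBM* and *HBA* were named after their values were seen. Alternatives covered centring, scaling, probes, filters, ratio direction, block, dye term, array weights, single cow pairs and thresholds.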

Additional observations from a re-analysis of the deposited data

Results flagged for a closer look

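The change of the feeding response between days, tested itself, was called in 4 results, none with an adjusted p under 0.05. They are not separate from each other. Both *APOA1* results subtract the same d-7 response of -1.43, which was itself called. The *APOA4* and *APOA5* results come from the same arrays, on which the ratios of these genes went together (r = 0.77). Of all genes, 1.15% were called in B4 between d-7 and d28. In B5, 1.36% were called between d-7 and d7 and 0.546% between d-7 and d28. None of the 4 was a call with the dyes of the day arrays exchanged. The *APOA4* and *APOA5* results were also no calls from the 36 arrays within days. In B4 the response of *APOA4* was higher at d28 than at d-7 by 2.30 (limma adjusted p = 0.679), and that of *APOA5* by 1.06 (adjusted p = 0.741). In B5 the response of *APOA1* was higher at d7 than at d-7 by 1.33 (adjusted p = 0.699), and at d28 than at d-7 by 1.53 (adjusted p = 1).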

How the results depend on the processing

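With the thresholds of the study, members were called 2 times in the day comparisons, beside 1.89% of values over all genes. Feeding within BCS (on each day and over all days, 8 comparisons) gave 2 calls, beside 0.66%. BCS (likewise, 4 comparisons) gave 3, beside 0.409%. The interaction of BCS and feeding gave 0, beside 0.419% to 0.992% by comparison. That of feeding and day gave 4, beside 0.546% to 1.36%. Calls of a kind share groups and cows, so they are not separate results. With adjusted p under 0.05 as the threshold all counts of members became 0. Without a minimum fold there were 4 calls for days and 4 for feeding. Reading the ratio as channel 2 over channel 1 gave 1 call for days, 9 for feeding, 0 for BCS and 1 for feeding and day. Array quality weights (0.303 to 2.74) gave 4 for days, 5 for feeding and 1 for the interaction of BCS and feeding. Scaling arrays to the same spread gave 1 for days. Leaving the cow pair out as a replicate block gave 2 for feeding and day and moved no other count past 1.5 times. Exchanging the dyes of the 12 day arrays, an alternative chosen after seeing the data, gave 0 for feeding and day. Leaving out 1 cow pair at a time gave 1 to 3 calls for days, 1 to 4 for feeding, 0 to 4 for BCS, 0 for the interaction of BCS and feeding and 2 to 5 for feeding and day. Exchanged dyes turned *APOA4* at d7 against d-7 to 2.08 and at d28 against d-7 to 1.48, *APOM* at d7 against d-7 to 0.38 and at d28 against d7 to -0.55, and the *APOA5* change in B4 to -0.16. Channel order turned *APOA1* for BCS at d28 to 0.45 and over all days to 0.26, *APOA4* at d28 to 0.43 and over all days to 0.33, and the *APOA1* change in B5 between d-7 and d28 to -0.20. The day values turn by construction, since only the 12 day arrays link the days. Channel order turns the sign of the 19 arrays with channel 1 Cy5, while the ratios were read by dye in the main fit. Leaving out the 12 day arrays, also chosen after seeing the data, gave 3 calls each for feeding, BCS and feeding and day. Shares of all genes called under the alternatives are not given, so these counts do not set the members against other genes.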
